A study of Bos taurus with 16 samples.

Results

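The genes of hepatic fatty acid oxidation and ketogenesis were compared between growing and finishing Angus steers. The set comprised 34 genes chosen by function: regulators, acyl-CoA activation, carnitine transfer, the mitochondrial and peroxisomal oxidation cycles, electron transfer and ketone body enzymes. All 34 carried a single symbol in the platform annotation, out of 18010 genes so named, and each was read from its brightest probe set. Of these, 18 were counted as mitochondrial and 7 as peroxisomal, 2 (CRAT and ECI2) are found in both, and the other 7 were placed in neither group. PDK4, a mitochondrial regulator, is among those placed in neither.

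The animals were castrated male Angus cattle, weaned at a start weight of 209 ± 29.4 kg and allotted at random to 2 phases. The 8 growing steers were taken to a final weight of 301 kg and the 8 finishing steers to 576 kg. All ate individually a diet based on cotton seed hulls that held gain at 1.5 kg per day, with free water and a vitamin and mineral supplement. Each of the 16 arrays measured total liver RNA of a separate animal. Weight, age and days on feed differ together between the phases and cannot be told apart.

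In liver, fatty acids are activated to acyl-CoA esters and pass into mitochondria as carnitine esters, a step controlled by CPT1A and its inhibitor malonyl-CoA. Each turn of the β-oxidation cycle then releases acetyl-CoA, which enters the citric acid cycle or is turned into ketone bodies for export. Peroxisomes shorten very long and branched chains. The nuclear receptor PPARA induces much of both routes in fasting rodents, together with PDK4 and the hormone FGF21.

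The deposited values are log2 signals, so a difference of 1 is a 2-fold change, and signals of different probe sets are not compared in level. Array medians lay between 5.57 and 5.64. Finishing replicates 5 and 6 correlated least with their own phase (medians 0.978 and 0.981, against 0.984 to 0.986 in the other finishing arrays), and results are given without them where a call changes. The hepatocyte transcript ALB averaged 13.7 in both phases. Of 15 hepatocyte markers TAT rose and AHSG fell, and their summed level overlapped, at 193.6 to 194.6 in growing and 193.6 to 194.9 in finishing steers. Markers of other liver cells were in part lower in finishing steers, and none was called higher. Called lower were 7 of 10 for stellate cells and fibroblasts (summed level 79.7 to 82.3 against 73.1 to 76.3) and 4 of 11 for macrophages (99.6 to 105.3 against 91.5 to 104.5). So were 6 of 12 for T and NK lymphocytes (70.0 to 79.7 against 65.5 to 72.0) and 2 of 10 for endothelium (89.5 to 91.7 against 87.9 to 90.8). Over all named genes 5.66% were called lower, and 8.52% of those brighter than the median probe set. The macrophage, lymphocyte and endothelial lists also held markers with a positive difference that did not pass. None of 5 cholangiocyte markers passed the test. The part of these shifts in the results below was not tested, and in whole liver fewer cells of a type and less RNA per cell cannot be told apart.

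Few genes of the pathway passed the test. By limma, with p-values adjusted by Benjamini and Hochberg's method across 26773 probe sets, 3 of 34 members rose in finishing steers: SLC22A5, CROT and ACADL, a carnitine importer, a peroxisomal carnitine acyltransferase and an acyl-CoA dehydrogenase. None fell (8 members had an unadjusted p under 0.05, of which ACSL5 alone was lower). Over all named genes 2.7% were called higher and 5.66% lower, and over those brighter than the median probe set, as 31 of the members were, 4.09% and 8.52%. The unadjusted threshold was passed by 23.5% of members, by 24.7% of named genes and by 33.8% of the brighter genes. In the upward direction it was passed by 7 of 34 members, 1972 of 18010 named genes (10.9%) and 1393 of 10166 brighter genes. In the downward direction it was passed by 1 of 34 members, 2482 of 18010 named genes and 2040 of 10166 brighter genes. The median difference of the members was 0.056, against 0.012 over all named genes and -0.017 over the brighter genes. Positive differences numbered 23 of 34, against 9562 of 18010 and 4743 of 10166. For 25 of the 34 members the 95% interval of the difference lay within 0.5 of zero, less than 1.41-fold either way. The same held for 82.8% of named genes (14907 of 18010) and for 7827 of 10166 brighter genes. The plot of differences by role shows these intervals.

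**Figure D1:**
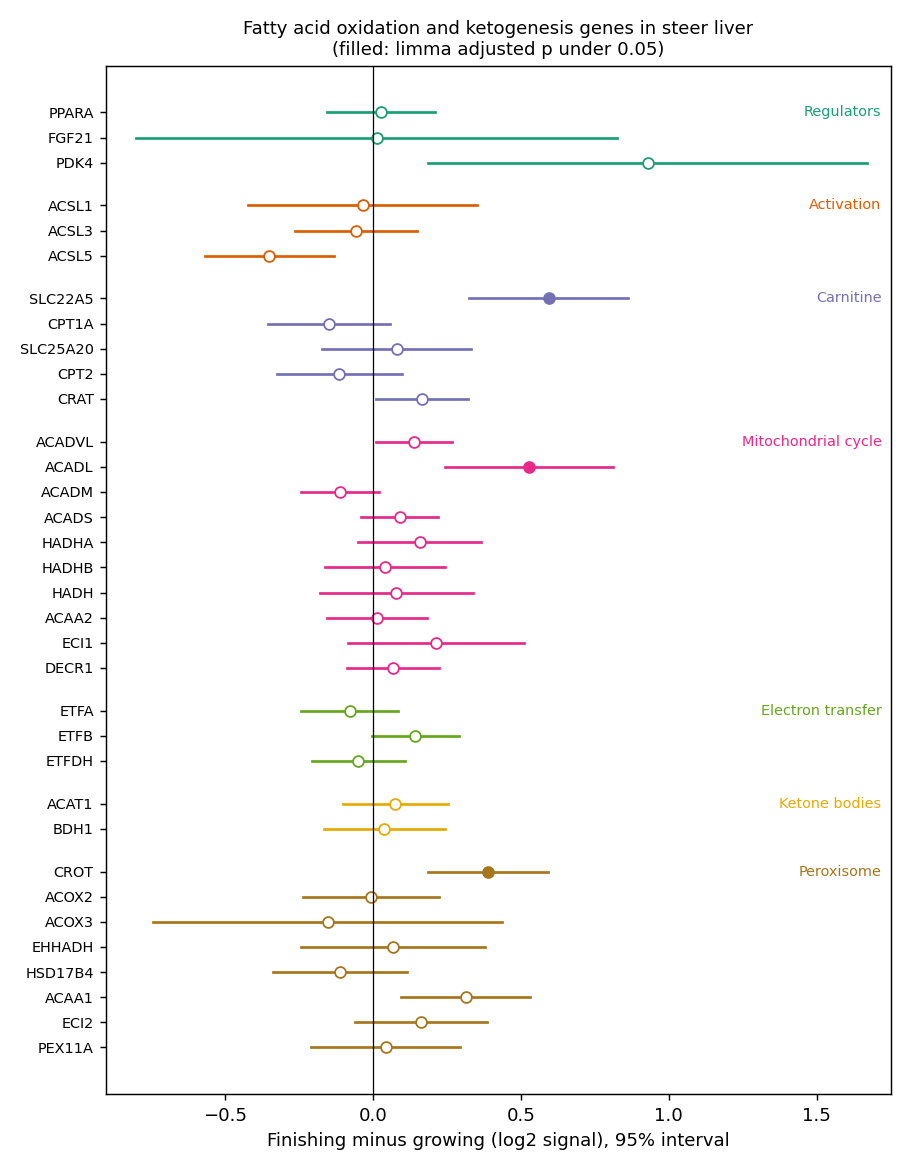
Difference between finishing and growing steers (log2 signal, horizontal axis) for the 34 genes grouped by role, with the 95% interval from limma as a line. Filled points (SLC22A5, ACADL and CROT) passed an adjusted p of 0.05; the widest intervals belong to FGF21, PDK4 and ACOX3.

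Among the regulators, the receptor PPARA did not pass. Its signal ran from 9.50 through a median of 9.68 to 9.88 in growing steers and from 9.36 through 9.74 to 10.03 in finishing steers. The difference was 0.029 ± 0.087 (SE, n = 8 per phase; 95% interval -0.15 to 0.21; adjusted p = 0.887), and the phases overlapped throughout. RXRA, its dimerisation partner, differed by -0.041 ± 0.074 (adjusted p = 0.807).

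PDK4, the kinase that inactivates pyruvate dehydrogenase and so spares glucose when fat is burned, had the largest difference of the set and did not pass. It ran from 7.07 through 7.89 to 8.84 in growing steers and from 7.86 through 8.60 to 10.20 in finishing steers. Finishing replicates 5, 6 and 8, at 10.10, 10.20 and 9.69, lay above every growing steer, while the other 5 lay within the growing range. The difference was 0.93 ± 0.35 (1.90-fold, adjusted p = 0.129), and 0.52 without finishing replicates 5 and 6 (adjusted p = 0.38). The related kinase PDK1, which is not a member, was more even and is given further on.

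FGF21, a liver hormone of fasting and lipid metabolism, was dim, with a mean below the median probe set mean of 5.60. It ran from 4.02 through 4.78 to 5.67 in growing and from 3.46 through 4.52 to 6.52 in finishing steers. Finishing replicates 5, 6 and 8, highest in PDK4, were at 3.46, 4.16 and 5.82, the first of these the lowest of all 16 steers. The difference was 0.014 ± 0.39 (adjusted p = 0.989), and changes within its interval of -0.80 to 0.83 were not detectable at this precision.

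Within a phase, PDK4 was set against CPT1A, ACSL1, FGF21 and PPARA across the 8 steers, which makes 8 relations. None passed after Benjamini-Hochberg adjustment (exact permutation of pairings, 2-sided; lowest adjusted p = 0.305). The closest was PDK4 with ACSL1 in finishing steers, with Pearson's r = 0.749 (exact permutation p = 0.0553) and Spearman's rho = 0.50 (exact permutation p = 0.216), and r = 0.691 without the 2 steers farthest from the PDK4 median. In growing steers PDK4 with PPARA gave r = 0.658 (exact permutation p = 0.0763) and rho = 0.548 (exact permutation p = 0.171), and r = 0.138 without the 2 farthest steers, so it rested on those. The same ACSL1 relation had r = -0.439 in growing steers (exact permutation p = 0.279). Without the 2 farthest steers it was -0.577. The remaining 5 relations had r between -0.401 and 0.326 and shifted widely without the 2 farthest steers. In finishing steers r for CPT1A, PPARA and FGF21 went from 0.042 to 0.556, from -0.167 to 0.535 and from -0.401 to 0.153. In growing steers r for FGF21 and CPT1A went from 0.062 to 0.615 and from 0.326 to -0.072.

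Of the acyl-CoA synthetases, which activate fatty acids, ACSL5 lay at the edge of the threshold. It ran from 10.90 through 11.08 to 11.40 in growing and from 10.26 through 10.74 to 11.01 in finishing steers. All 8 finishing steers lay below the growing mean and 5 lay below every growing steer. The difference was -0.35 ± 0.10 (95% interval -0.57 to -0.13; adjusted p = 0.0508). It passed without growing replicate 5 or finishing replicate 1, 7 or 8 (lowest adjusted p = 0.033), and had an adjusted p of 0.151 without finishing replicates 5 and 6, which held its lowest values. ACSL1 and ACSL3 differed by -0.034 ± 0.18 and -0.056 ± 0.097 (adjusted p = 0.94 and 0.795). ACSL1 was uneven among growing steers, from 10.86 in replicate 5 to 12.39 in replicate 3, and all 8 finishing steers lay between these.

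SLC22A5, the plasma membrane importer of carnitine, rose most among the members past the test. It ran from 6.10 through 6.29 to 6.47 in growing and from 6.44 through 6.88 to 7.52 in finishing steers. Only finishing replicate 3 lay within the growing range, and the other 7 lay above every growing steer. The rise was 0.595 ± 0.13 (1.51-fold, adjusted p = 0.0114), and it passed in all 16 fits that left out 1 array and without finishing replicates 5 and 6 (0.53, adjusted p = 0.0463).

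None of the genes of the mitochondrial carnitine shuttle passed. CPT1A, which forms acylcarnitines at the outer membrane and is the controlled step of the route, ran from 10.13 through 10.54 to 10.73 in growing and from 10.03 through 10.41 to 10.70 in finishing steers. The phases overlapped, and 7 of 8 finishing steers lay below the growing mean. Its difference was -0.15 ± 0.098 (95% interval -0.35 to 0.060; adjusted p = 0.417). SLC25A20, the carnitine-acylcarnitine carrier of the inner membrane, differed by 0.081 ± 0.12 (adjusted p = 0.757). CPT2, which regenerates acyl-CoA inside, differed by -0.11 ± 0.10 (adjusted p = 0.565), with finishing replicate 5 at 8.94 and all other steers at 9.47 or above. CRAT, carnitine acetyltransferase, was 8.68 to 8.97 in growing steers and 8.96 to 9.13 in 7 finishing steers, with finishing replicate 5 at 8.60. Its difference of 0.17 ± 0.074 did not pass (adjusted p = 0.195), and did without finishing replicate 5 (0.224, adjusted p = 0.0296) or without replicates 5 and 6 (0.226, adjusted p = 0.0499).

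**Figure D2:**
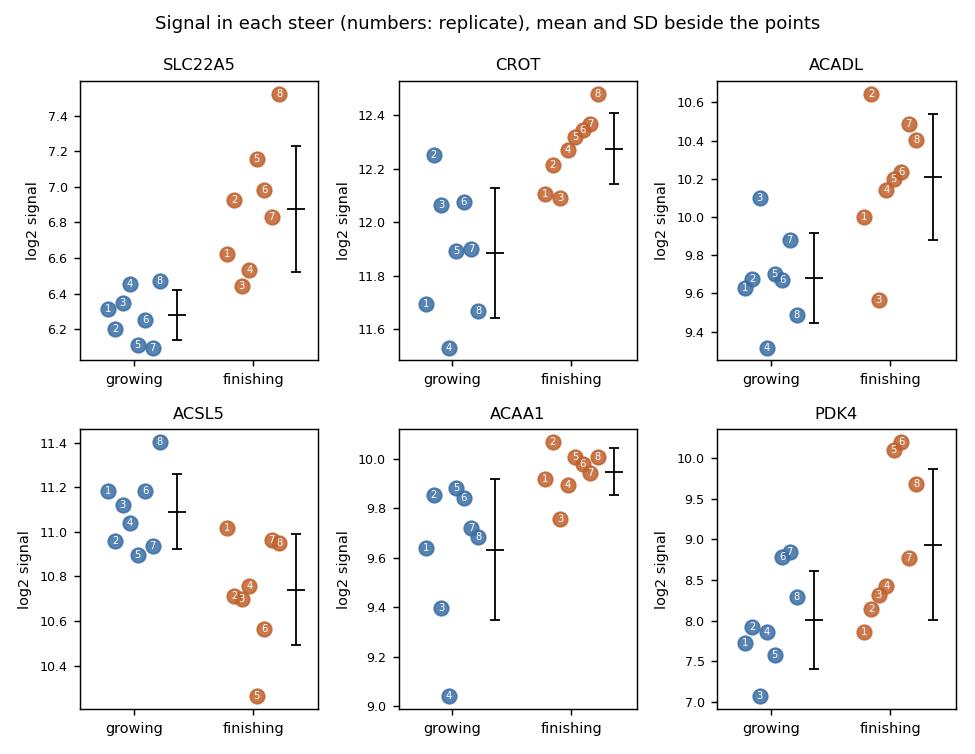
Log2 signal (vertical axis) of 6 members in each of 8 growing and 8 finishing steers, numbered by replicate, with the mean and SD beside the points. SLC22A5, CROT and ACADL passed the test; ACSL5, ACAA1 and PDK4 did not, and the 3 high PDK4 values belong to finishing replicates 5, 6 and 8.

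In the mitochondrial cycle, the acyl-CoA dehydrogenases that begin each turn differ in preferred chain length. ACADL, the long-chain enzyme, ran from 9.32 through 9.68 to 10.10 in growing and from 9.57 through 10.22 to 10.65 in finishing steers. Finishing replicate 3, at 9.57, was low, and growing replicate 3, at 10.10, was above finishing replicates 1 and 3, while 6 finishing steers lay above all growing steers. The rise was 0.53 ± 0.13 (1.44-fold, adjusted p = 0.0258). The call was lost without growing replicate 8 or finishing replicate 2, 7 or 8 (highest adjusted p = 0.053) and without finishing replicates 5 and 6 (0.52, adjusted p = 0.0747).

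The other dehydrogenases did not pass. ACADVL, for very long chains, differed by 0.14 ± 0.061 (adjusted p = 0.188), with 6 finishing steers above every growing steer. ACADM, for medium chains, differed by -0.11 ± 0.063 (adjusted p = 0.327): 6 growing steers lay above every finishing steer, and growing replicate 4, at 12.10, below all of them. ACADS, for short chains, differed by 0.091 ± 0.061 (adjusted p = 0.423). For ACADM the interval, -0.24 to 0.021, does not overlap that of ACADL, 0.24 to 0.81; the difference between the genes was not tested.

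Downstream, the subunits of the trifunctional protein, HADHA and HADHB, which catalyse the later steps for long chains and lie next to each other in the genome, differed by 0.16 ± 0.098 and 0.041 ± 0.096 (adjusted p = 0.376 and 0.85). A second HADHA probe set was dim, at 2.70 in growing and 2.76 in finishing steers, and did not differ by the test either (adjusted p = 0.737). HADH, the short-chain hydroxyacyl-CoA dehydrogenase, differed by 0.080 ± 0.12 (adjusted p = 0.766). The thiolase ACAA2, which releases acetyl-CoA, differed by 0.015 ± 0.081 (adjusted p = 0.94). Of the auxiliary enzymes for unsaturated fatty acids, DECR1 differed by 0.068 ± 0.074 (adjusted p = 0.649) and ECI1 by 0.21 ± 0.14 (adjusted p = 0.411). ECI1 was even in 14 steers, at 8.59 to 9.18, and low in growing replicates 3 and 4, at 7.89 and 8.26. Without them its difference was 0.016.

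The electron transfer flavoprotein carries electrons from the dehydrogenases to the respiratory chain. Its subunits ETFA and ETFB differed by -0.078 ± 0.078 and 0.144 ± 0.070 (adjusted p = 0.612 and 0.24), and its oxidoreductase ETFDH by -0.049 ± 0.074 (adjusted p = 0.762). All 3 intervals lay within 0.5 of zero.

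Of the ketone body enzymes, ACAT1, the mitochondrial thiolase that condenses acetyl-CoA, ran from 10.43 through 10.71 to 10.94 in growing and from 10.63 through 10.73 to 10.97 in finishing steers (difference 0.076 ± 0.084, adjusted p = 0.656). BDH1, which interconverts acetoacetate and 3-hydroxybutyrate, was dim, at 3.82 to 4.36 in growing and 3.80 to 4.53 in finishing steers (difference 0.039 ± 0.097, adjusted p = 0.86). No detection calls were used, so a change hidden under background cannot be told apart from a steady BDH1 level.

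In peroxisomes, CROT, carnitine octanoyltransferase, which prepares shortened chains for export to mitochondria, rose. It ran from 11.53 through 11.90 to 12.25 in growing and from 12.09 through 12.29 to 12.48 in finishing steers. Of the growing steers, 7 lay below every finishing steer, and growing replicate 2, at 12.25, lay among them. The rise was 0.39 ± 0.096 (1.31-fold, adjusted p = 0.0221). It passed in all 16 fits that left out 1 array and not without finishing replicates 5 and 6 (0.37, adjusted p = 0.0747).

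ACAA1, the peroxisomal thiolase, did not pass. It ran from 9.04 through 9.70 to 9.88 in growing and from 9.76 through 9.96 to 10.07 in finishing steers, and 7 finishing steers lay above every growing steer. The difference was 0.31 ± 0.10 (adjusted p = 0.0785). ACAA1 passed in none of the 16 fits that left out 1 array (lowest adjusted p = 0.0597). Without finishing replicates 5 and 6 its adjusted p was 0.185. Growing replicates 3 and 4, at 9.40 and 9.04, were the lowest, and without them the difference was 0.18 (adjusted p = 0.111). Finishing steers had a narrower spread (SD 0.095 against 0.286 in growing steers).

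The remaining peroxisomal genes did not pass. The acyl-CoA oxidases ACOX2 and ACOX3, which act on branched chains, differed by -0.0059 ± 0.11 and -0.15 ± 0.28 (adjusted p = 0.985 and 0.809). ACOX3 was the most variable member in growing steers, from 7.96 in replicate 8 to 9.96 in replicate 7. The bifunctional enzymes EHHADH and HSD17B4 differed by 0.068 ± 0.15 and -0.11 ± 0.11 (adjusted p = 0.838 and 0.607). ECI2, an isomerase for unsaturated chains, differed by 0.16 ± 0.11 (adjusted p = 0.401), and its second, dim probe set by 0.082 (adjusted p = 0.618). PEX11A, which takes part in peroxisome division, was dim and differed by 0.044 ± 0.12 (adjusted p = 0.876).

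Taken by compartment, 1 of 18 mitochondrial members (ACADL) and 1 of 7 peroxisomal members (CROT) rose, or 5.56% and 14.3%, and none of either fell (unadjusted p under 0.05: 2 and 2, all higher). Over all named genes 2.7% were called higher, 5.66% lower and 10.9% higher without adjustment, so single calls in lists of this size do not set either compartment apart. The median difference was 0.072 for mitochondrial and 0.044 for peroxisomal members, and 13 of 18 and 4 of 7 differences were positive. The 7 peroxisomal members spanned -0.15 to 0.39 and the 18 mitochondrial ones -0.15 to 0.53, so the ranges largely coincide. PDK4, with a difference of 0.93, was not counted among the mitochondrial members. Whether the compartments differ was not tested. Without growing replicates 3 and 4 the medians were -0.011 and -0.15.

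Many members were low together in 2 growing steers, replicates 3 and 4. For each steer, the deviation of every gene from its growing mean was taken, and the median of these over a compartment. In growing replicates 3 and 4 the mitochondrial median was -0.12 and -0.21 and the peroxisomal median -0.42 and -0.46. The other 6 growing steers lay between -0.011 and 0.094 for mitochondrial and between 0.033 and 0.25 for peroxisomal members. Finishing steers ran from -0.045 to 0.17 and from -0.13 to 0.23. EHHADH shows the pattern, at 8.85 and 9.13 in growing replicates 3 and 4 and 9.66 to 9.99 in the other growing steers. ACOX2 was 11.09 and 11.05 in these and 11.52 to 11.78 in the others.

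These 2 steers held the 2 lowest growing values for 17 of 34 members (50%), 11 of 18 mitochondrial and 4 of 7 peroxisomal, against 8.96% of all named genes. The pair was picked after the members' values had been seen, so the count is a description. In replicate 3 CROT and ACADL were not low, at 12.06 and 10.10, and the lowest growing ACOX3 was in replicate 8. The hepatocyte summed level of the pair, 194.0 and 194.3, lay within that of the other growing steers. The macrophage sum was 101.6 in replicate 3 and 105.3, the highest of all 16 arrays, in replicate 4, and the lymphocyte sum of replicate 4, 79.7, was also the highest. Their part in the pattern was not tested.

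**Figure D3:**
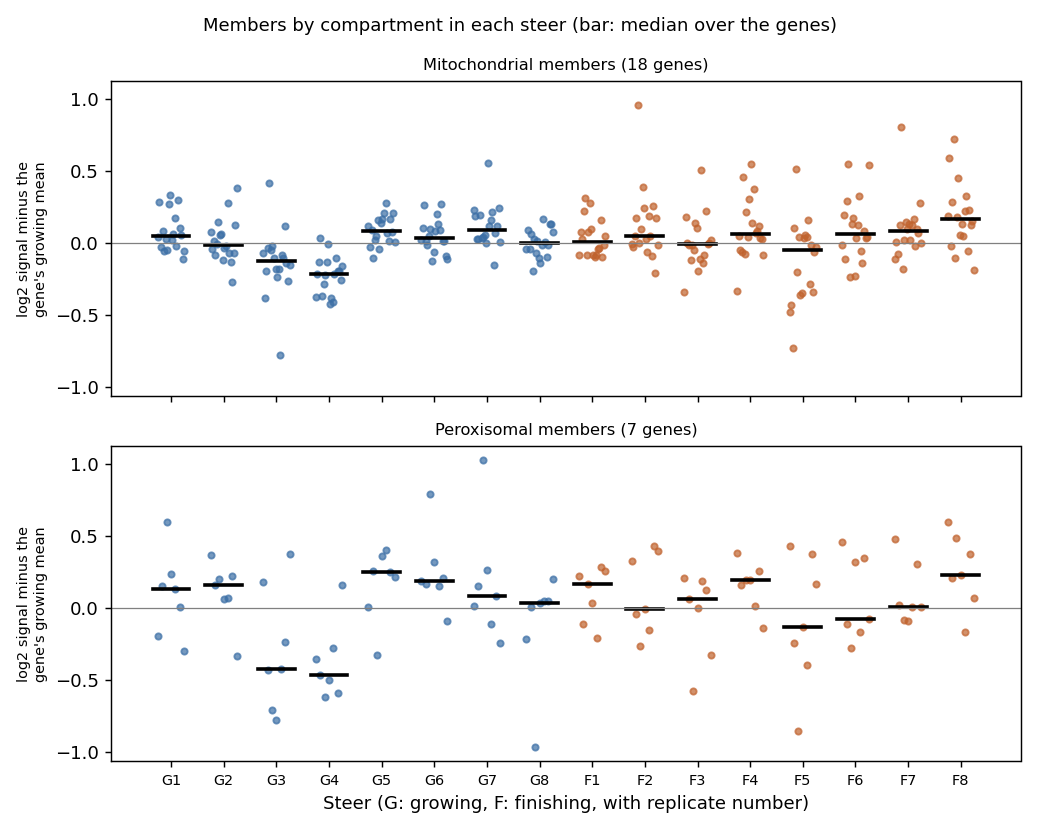
Log2 signal of each mitochondrial (18 genes, upper) and peroxisomal (7 genes, lower) member in each steer, minus that gene's growing mean; bars are medians over the genes. Growing replicates 3 and 4 (G3, G4) have the lowest medians in both panels, at -0.42 and -0.46 for peroxisomal members.

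The spread between steers differed among members. The SD of a member ran from 0.068 (ACADVL) to 0.758 (ACOX3) in growing steers, with a median of 0.191, and from 0.085 (ACADM) to 1.05 (FGF21) in finishing steers, with a median of 0.211. Over all named genes the medians were 0.164 and 0.186. PDK4 and FGF21 had an SD over 0.5 in both phases and ACOX3 in growing steers.

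A further 93 measured genes of the pathway, of 107 listed, were examined beside the members. Of these 5 rose and 2 fell; 5.38% were thus higher, against 2.7% higher and 5.66% lower over all named genes, and 22.6% against 24.7% passed without adjustment. Their median difference was -0.028. None of 15 other mitochondrial oxidation genes and none of 4 other ketone body genes passed (unadjusted p under 0.05: 1 and 0). Of 23 other peroxisomal genes 2 rose (unadjusted p under 0.05: 2 higher and 1 lower). Of 7 further carnitine and malonyl-CoA genes 1 rose. At an unadjusted p under 0.05, 3 of these 7 were higher and 1 lower, or 57.1% against 24.7% of named genes. Of 17 for activation, uptake and thioester cleavage none passed (unadjusted p under 0.05: 2, both lower). Among the other peroxisomal genes CAT, catalase, differed by -0.032 ± 0.051 (adjusted p = 0.775).

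Around malonyl-CoA, the inhibitor of CPT1A, MLYCD rose. This gene encodes malonyl-CoA decarboxylase, which removes that inhibitor. It ran from 6.37 through 6.48 to 6.64 in growing and from 6.72 through 6.93 to 6.99 in finishing steers, so the phases did not overlap. The rise was 0.40 ± 0.060 (1.32-fold, adjusted p = 0.00174), and it passed in all 16 fits that left out 1 array and without finishing replicates 5 and 6. ACACB, which makes malonyl-CoA at mitochondria, was dim and differed by 0.31 ± 0.12 (adjusted p = 0.143), with 6 finishing steers above every growing steer. CPT1B, the muscle form of CPT1, differed by 0.39 ± 0.16 (adjusted p = 0.162).

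PDK1, another pyruvate dehydrogenase kinase, rose where PDK4 did not pass. It ran from 7.37 through 8.20 to 8.46 in growing and from 8.62 through 8.76 to 8.97 in finishing steers, without overlap. The rise was 0.67 ± 0.13 (1.59-fold, adjusted p = 0.0069) and passed in all 16 fits that left out 1 array. PDK1 was even in finishing steers (SD 0.117), unlike PDK4 (SD 0.924).

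The peroxisome assembly genes PEX5, the import receptor for matrix proteins, and PEX16, a membrane factor, rose by 0.38 ± 0.10 and 0.31 ± 0.083 (adjusted p = 0.0386 and 0.0331). Of fits that left out 1 array, the PEX5 call was lost without growing replicates 1, 4, 6, 7 and 8 and finishing replicates 2, 4, 5, 7 and 8 (highest adjusted p = 0.0759). The PEX16 call was lost without growing replicates 1, 3, 6 and 8 and finishing replicates 2, 5, 6 and 8 (highest adjusted p = 0.065). Neither passed without finishing replicates 5 and 6 (adjusted p = 0.0914 and 0.0949) or without growing replicates 3 and 4 (adjusted p = 0.0756 and 0.0547).

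Of 27 further regulators and known targets of PPARA 2 rose (ANGPTL4 and PDK1, 7.41%), 2 fell (VNN1 and FGFR1) and 23 did not pass. The median difference of the 27 was -0.034. Over all named genes 2.7% were called higher and 5.66% lower. At an unadjusted p under 0.05, 7 of the 27 were higher and 4 lower, or 40.7% against 24.7% of named genes. VNN1, a pantetheinase, fell by 0.77 ± 0.17 on the log2 scale (adjusted p = 0.0134). It was 8.39 to 8.83 in 7 growing steers and 7.59 in growing replicate 4, against 7.35 to 8.21 in finishing steers, and passed in all 16 fits that left out 1 array. ANGPTL4, a lipase inhibitor, rose by 1.13 ± 0.31 (adjusted p = 0.0356). Its values in finishing replicates 5, 6 and 8 were 9.41, 8.61 and 8.72, the same 3 steers that were high in PDK4, against 6.82 to 7.49 in the other finishing and 6.46 to 7.17 in growing steers. The ANGPTL4 call was lost without growing replicate 1, 2, 5, 6, 7 or 8 or finishing replicate 6 or 8 (highest adjusted p = 0.0721), and without finishing replicates 5 and 6 (0.74, adjusted p = 0.0833).

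PPARGC1A, a coactivator of PPARA, was uneven too. It ran from 7.71 through 8.33 to 9.02 in growing and from 7.85 through 9.39 to 10.44 in finishing steers. Finishing replicates 4 to 8 lay above all growing steers, at 9.29 to 10.44, and replicates 1 to 3 within them. The difference was 0.82 ± 0.35 (adjusted p = 0.182), and 0.43 without finishing replicates 5 and 6. FGFR1, a receptor through which FGF21 acts, fell by 0.36 ± 0.093 on the log2 scale (adjusted p = 0.0282). That call was lost without growing replicate 2, 5 or 7 or finishing replicate 2, 6 or 8 (highest adjusted p = 0.0588).

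**Figure D4:**
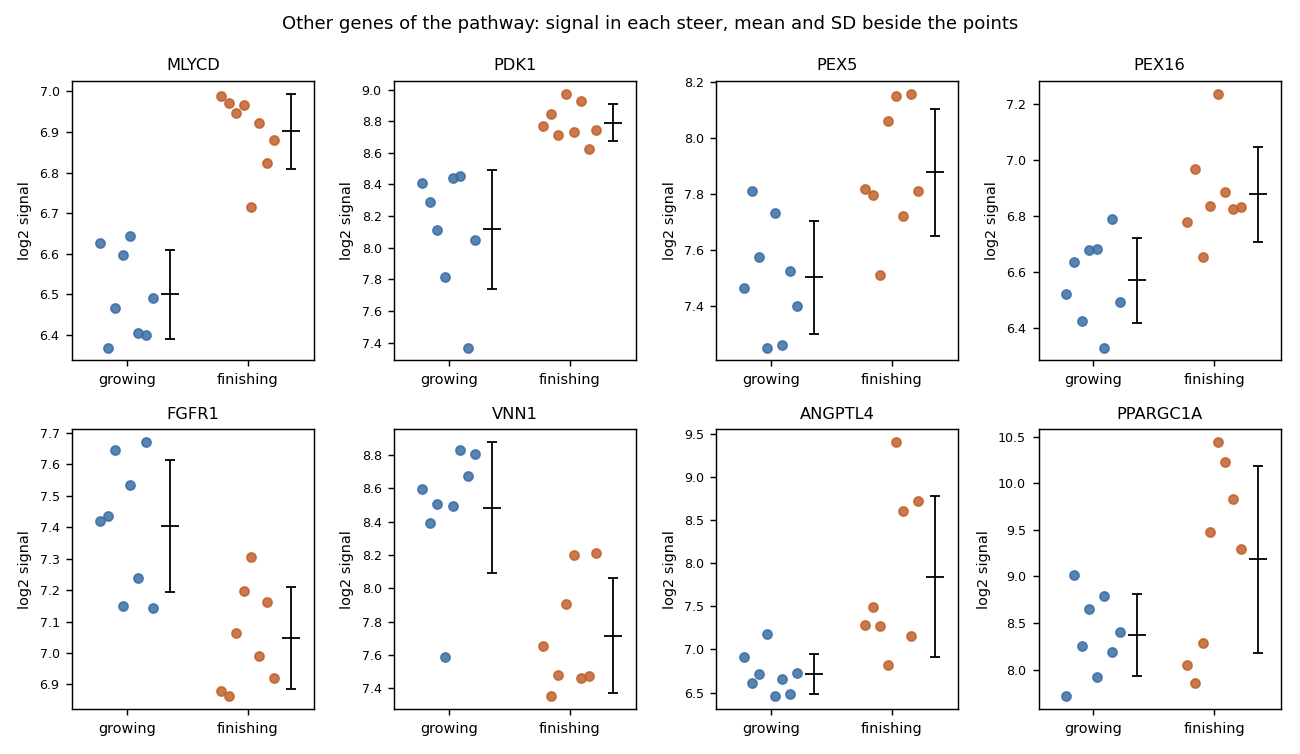
Log2 signal (vertical axis) of 8 further pathway genes in each of 8 growing and 8 finishing steers, with the mean and SD beside the points. MLYCD and PDK1 do not overlap between phases, and ANGPTL4 and PPARGC1A are spread widely among finishing steers.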

How the data were processed

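Labels give Trizol extraction of total liver RNA and biotin-labelled cRNA prepared by the Affymetrix protocol from oligo(dT)-primed cDNA. GCOS 1.2 and Partek 6.4 are named in the submitters' processing notes; their roles, and how probes were summarised and arrays normalised, are not given in the sources used here. Per probe set and array the deposited table holds 1 log2 value (1.48 to 14.1, which identifies the scale), and nothing was rescaled or filtered. It has no detection calls, and changes of dim probe sets may be compressed.

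Gene names come from the platform annotation, which looks like that of a gene array, while the labels describe oligo(dT)-primed labelling; this mismatch was not settled, and every named value rests on that annotation. All 34 members matched RefSeq (ARS-UCD2.0) by gene identifier. Where a gene had several probe sets the brightest on average was taken. Finishing was compared with growing in limma 3.58.1 under R 4.3.3 (lmFit, then eBayes with no trend, 2-sided), with Benjamini-Hochberg adjustment across 26773 probe sets, and calls were made at 0.05. Differences carry an SE and levels an SD. The fit was tested on simulated data. No pair of arrays was identical, and the number of arrays limits precision.

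Members and lists were chosen with earlier results of these data known. Named are all members, and of the other pathway genes CAT, CPT1B, ACACB, MLYCD, PPARGC1A, RXRA and every gene past the threshold. Medians over members carry no test. Alternatives covered normalisation, variance model, array weights, dim probe sets, probe set choice, a replicate block and left-out arrays.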

Additional observations from a re-analysis of the deposited data

Results flagged for a closer look

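In 6 of 68 sets of 8 values (34 members in 2 phases), 1 steer stood apart from its phase by Dixon's criterion for 8 samples (0.526), which chance meets in about 1 of 20 sets. Finishing replicate 5 was low for CPT2, at 8.94 against 9.56 to 9.72 in the other finishing steers, and for CRAT, at 8.60 against 8.96 to 9.13. Growing replicate 4 was low for ACADM, at 12.10 against 12.34 to 12.53. Finishing replicate 4 was high for HADH, at 10.44 against 9.69 to 10.02. BDH1 was high in growing replicate 2, at 4.36 against 3.82 to 4.06, and in finishing replicate 6, at 4.53 against 3.80 to 4.03, both near the dim end of the scale.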

How the results depend on the processing

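Over the 34 members, 3 rose and 0 fell in the reported fit. The number that rose was 3 under quantile normalisation, median centring, robust estimation with a variance trend and weighting of arrays. It was also 3 under both other probe set choices. Those are no check on these calls, since SLC22A5, CROT and ACADL have 1 probe set each. With dim probe sets left out 4 rose (ACAA1 added), and without finishing replicates 5 and 6 2 rose (SLC22A5 and CRAT). ACSL5 made 1 member fall with the variance trend (adjusted p = 0.0426) and with dim probe sets left out (adjusted p = 0.0282). The labels do not say that replicate numbers pair the animals. No same-numbered pair had a correlation of deviations over 0.1 (range -0.153 to 0.0406), which does not show that the numbers carry no shared block. With the replicate block 1 member rose (SLC22A5), with CROT and ACADL at adjusted p = 0.0659 and 0.0823, 3 other pathway genes rose, and 268 probe sets were higher and 642 lower. Without finishing replicates 5 and 6 these were 2, 288 and 654, against 5, 626 and 1151 as reported. Without growing replicates 3 and 4, left out after their values had been seen, 944 probe sets were higher and 4 other pathway genes lower. Leaving out 1 array at a time gave 2 to 4 members higher and 0 to 1 lower, 2 to 6 other pathway genes higher and 1 to 4 lower, 410 to 881 probe sets higher and 858 to 1324 lower. The median of mitochondrial members then ran from 0.032 to 0.098 and that of peroxisomal members from -0.043 to 0.078. Causes of these shifts were not tested. Fewer arrays are fitted where some are left out. Signal over background was not measured, which limits BDH1, FGF21 and PEX11A.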
